A study of Mus musculus with 36 samples.

Results

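The transcripts of 10 laminin and basement membrane genes were followed in heart, kidney and liver of young male mice. They were Lama2, Lama4 and Lama5 (laminin alpha chains), Lamb1 and Lamb2 (beta chains), Lamc1 (a gamma chain), Nid1 and Nid2 (the nidogens), Hspg2 (perlecan) and Agrn (agrin). Each symbol was matched to its Ensembl identifier among the 78239 genes of the count tables. All 10 were found and all 10 passed the filter on low counts in each tissue. The mice were wild-type (WT) male C57BL/6NCrl animals, an inbred strain, with no treatment or transgene, and polyA RNA of the homogenized organ was sequenced from animals aged 8 weeks, 10 weeks and 12 weeks. Each of the 9 tissue and age groups held 4 libraries, 36 in all, which the labels call biological replicates. The labels do not say whether the heart, kidney and liver libraries with the same number came from the same mouse.

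Basement membranes are thin sheets of extracellular matrix under epithelia, around muscle cells, and around most blood vessels. Laminins, which build the sheet that cells bind, are trimers of an alpha, a beta and a gamma chain, and the chains assembled differ between tissues and decide which receptors a cell can use. Collagen IV forms a separate network, and nidogens and the heparan sulfate proteoglycan perlecan connect the networks. In heart, laminins with the alpha 2 chain surround cardiomyocytes and those with alpha 4 and alpha 5 lie under the endothelium. In kidney, the mature glomerular filter holds laminin with alpha 5, beta 2 and gamma 1, together with agrin. In liver, the sinusoids lack a continuous basement membrane, which is found around bile ducts and larger vessels.

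Depth lay between 21031599 and 33637390 read pairs counted on genes per library. Levels are CPM values, that is counts brought to a common library size, here with TMM factors (a trimmed mean computed by edgeR) over all 36 libraries. Levels of different genes are compared only as CPM per kilobase (kb) of the gene's merged exons. Marker genes matched the tissue labels. Summed over 5 cardiomyocyte genes, the lowest heart library held 45730 CPM, while no kidney library exceeded 1.42 and no liver library 1.48. The 5 kidney tubule genes summed to at least 8225 CPM in kidney and at most 2.22 elsewhere. The 5 hepatocyte genes summed to at least 87060 CPM in liver and at most 153 in kidney and 22.3 in heart, the latter in a 10-week library.

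Heart was the tissue with the highest level for 8 of the 10 genes, and kidney for the other 2, Lamb1 and Agrn. Lamb2 stood out in the heart. Its 12 heart libraries lay between 317 and 451 CPM (median 391), the kidney libraries between 37.9 and 55.7 (median 49.2) and the liver libraries between 5.05 and 9.77 (median 7.95). The 3 tissues did not overlap, and heart exceeded kidney 8.03-fold and liver 50.02-fold. Hspg2, whose protein ties laminin to collagen IV and binds growth factors through its heparan sulfate, held 325 to 448 CPM in heart (median 385). In kidney it ranged from 39.01 to 78.4 (median 54.0) and in liver from 14.3 to 32.3 (median 22.9). As RNA was taken from whole organs, fewer cells of a type and less RNA per cell cannot be told apart in any of these values.

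Agrin, which organizes receptors at synapses and binds dystroglycan on other cells, had another order. Agrn lay between 120 and 142 CPM in kidney (median 127), between 53.5 and 90.4 in heart (median 70.1) and between 35.3 and 56.1 in liver (median 49.0). Kidney therefore lay above both other tissues in every library, whereas the lowest heart value fell below the highest liver value. Lamb1, the beta chain of most embryonic laminins, ranged from 106 to 144 CPM in kidney, above every heart library (85.8 to 102). In liver its 12 values, from 6.21 to 12.0, were far lower.

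The bases before the transcription start of a gene that favoured heart strongly (Lamb2), and of both proteoglycan genes, which ordered the tissues differently, are shown from the RefSeq promoter table (built on GRCm38.p6). The table held 7 of the 10 genes, without Lama4, Lamc1 and Nid2. Each window starts 250 bases before the RefSeq start and ends at the annotated 5′ end of the gene on GRCm39, where it matched exactly at 1 place. Letters are in the direction of transcription, and capitals mark GGGCGG or its complement CCGCCC, the GC box bound by Sp1-type factors, with overlapping matches counted separately.
Lamb2, chr9:108356811-108356934, plus strand: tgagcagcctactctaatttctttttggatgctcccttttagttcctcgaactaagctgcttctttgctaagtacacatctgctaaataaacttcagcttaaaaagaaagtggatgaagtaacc
Hspg2, chr4:137195864-137196078, plus strand: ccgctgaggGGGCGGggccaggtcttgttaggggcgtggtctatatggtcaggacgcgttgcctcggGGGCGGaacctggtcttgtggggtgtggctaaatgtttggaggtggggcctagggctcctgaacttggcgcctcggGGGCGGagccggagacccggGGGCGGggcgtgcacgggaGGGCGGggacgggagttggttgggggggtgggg
Agrn, chr4:156282015-156282195, minus strand: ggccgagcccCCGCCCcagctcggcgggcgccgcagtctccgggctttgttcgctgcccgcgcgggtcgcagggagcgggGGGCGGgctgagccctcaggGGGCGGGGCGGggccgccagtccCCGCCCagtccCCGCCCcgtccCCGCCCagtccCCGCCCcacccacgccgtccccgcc

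The 124 bases of Lamb2 held no GC box and 37.9% G or C. The 215 bases of Hspg2 held 5 GC boxes and 70.7% G or C, and the 181 bases of Agrn held 8 and 84.0%. Among all 32851 promoters of the table, 13.3%, 27.7% and 21.2% had at least 1 GC box in windows of these respective lengths. Neither CCAAT nor TATAAA, on either strand, occurred in the 3 windows. Windows of Lama5 and Nid1, also highest in heart, are not shown. They held 2 and 0 GC boxes, with 71.1% and 59% G or C. The bases nearest the RefSeq start, 126 for Lamb2, 35 for Hspg2 and 69 for Agrn, were outside the windows and were not searched. These counts describe the letters of the windows only, not whole promoters.

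**Figure D1:**
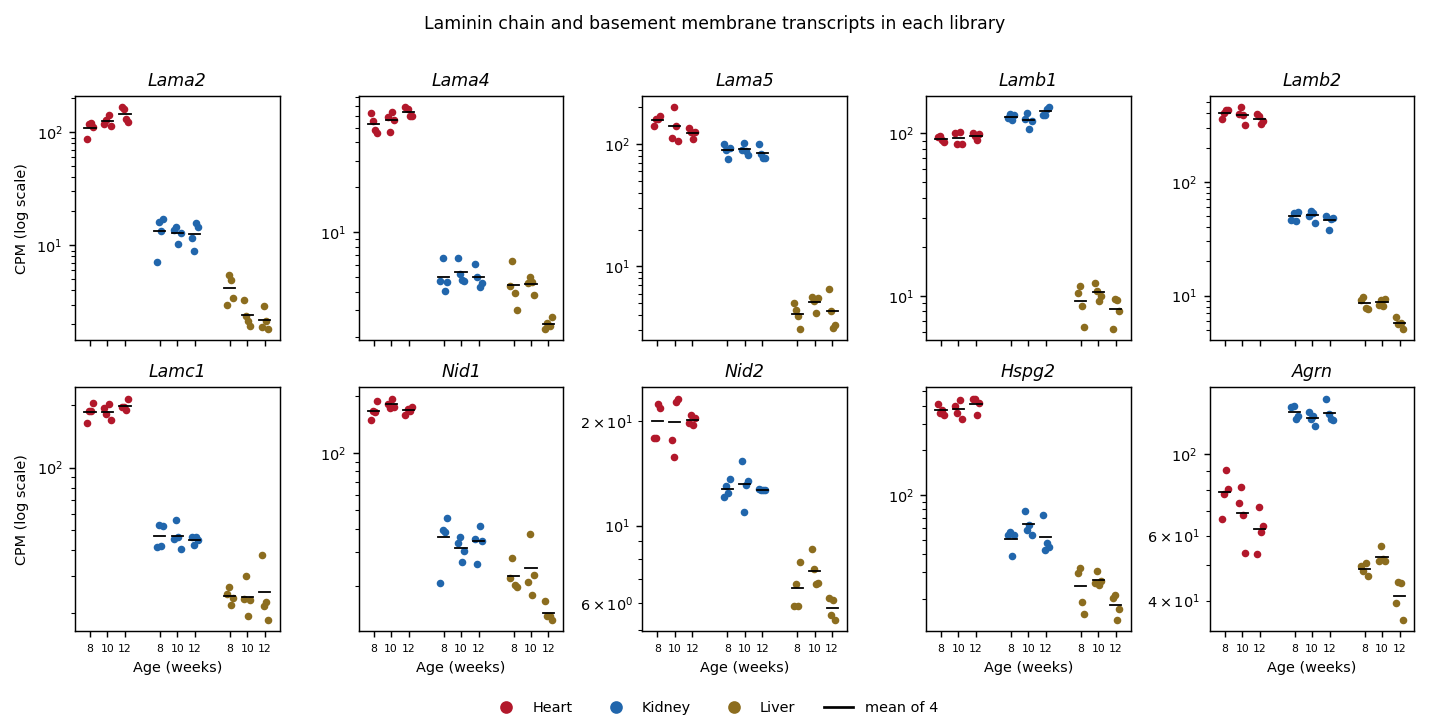
CPM of each gene (log scale) in the 36 libraries, by tissue and age in weeks, where points are libraries and black lines the mean of 4. Heart lies highest in 8 panels and kidney highest for Lamb1 and Agrn, whose kidney libraries all lie above 105 and 119 CPM.

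The tissues were compared in an edgeR quasi-likelihood model of all 36 libraries, averaging the 3 ages. A gene was called where the Benjamini-Hochberg adjusted p over 19716 genes was under 0.05 and the absolute log2 fold change was over 1. Between heart and kidney, 6 of the 10 genes were called higher in heart, against 21.9% of all genes, and 0 were called lower, against 30.8%. The largest differences were those of Lama4 (log2 fold change 3.51 ± 0.09, SE), Lama2 (3.31 ± 0.12), Lamb2 (3.01 ± 0.06) and Hspg2 (2.85 ± 0.11), followed by Nid1 (2.36 ± 0.10) and Lamc1 (2.07 ± 0.08). Lama5 (0.70 ± 0.09) and Nid2 (0.66 ± 0.07) differed less. On the same scale Agrn (-0.85 ± 0.06) and Lamb1 (-0.40 ± 0.06) lay on the kidney side.

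Against liver, 9 of the 10 genes were called higher in heart (28.7% of all genes), with Agrn at 0.55 ± 0.06 as the exception. Lamb2 (5.64 ± 0.07), Lama2 (5.46 ± 0.14) and Lama5 (4.94 ± 0.11) had the largest log2 differences. Kidney exceeded liver by the call in 6 of 10 genes (30.6% of all genes), namely Lama5 (4.24 ± 0.11), Lamb1 (3.72 ± 0.07), Lamb2 (2.64 ± 0.07), Lama2 (2.15 ± 0.13), Agrn (1.39 ± 0.06) and Hspg2 (1.22 ± 0.11). Nid2, Lamc1, Nid1 and Lama4 were between 0.44 and 0.92 on this scale. In all 30 of these comparisons the adjusted p was under 0.05, the highest being 0.00021, so the size threshold separated called from uncalled genes. The median of all genes was itself shifted, by -0.15 between heart and kidney and 0.16 between kidney and liver. With library totals alone in place of TMM factors it was -0.67 and 0.93, and 0.22 between heart and liver. No member changed sign with library totals or RLE factors, nor after the median of all genes was subtracted. With library totals, Agrn was called lower in heart than in kidney (-1.38) and all 10 genes were called higher in kidney than in liver.

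Per kb of exon, Lamb2 was the most abundant of the 10 in heart (63.1 ± 6.99 CPM per kb, SD, n = 12), above Hspg2 (24.4 ± 2.69) in every library. Hspg2 and Nid1 (22.8 ± 1.61) overlapped. Nid1 lay above Lamc1 (16.8 ± 1.28) without overlap. From Lamc1 the order went on through Lama5, Lamb1, Agrn and Lama2 with each overlapping the next. Lama2 (7.11 ± 1.21) then lay above Lama4 (3.67 ± 0.479), and Lama4 overlapped Nid2 (3.07 ± 0.360).

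In kidney, Agrn (13.4 ± 0.633 CPM per kb) and Lamb1 (11.9 ± 0.951) came first and overlapped each other, above Lamb2 (8.01 ± 0.844) and Lama5 (7.72 ± 0.830), which also overlapped. Nid1, Lamc1 and Hspg2 followed, and Lama4 was lowest (0.327 ± 0.0572). In liver, Agrn was highest (4.94 ± 0.599) but overlapped Nid1 (2.74 ± 0.905), and Lama2 was lowest (0.165 ± 0.0671). The 1 step between neighbours in liver without overlap was from Lamb1 (0.870 ± 0.169) to Lama5 (0.394 ± 0.0954). With the longest annotated transcript as the length, 15 of the 30 ranks shifted, and Lamb1 then came before Agrn in kidney.

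The beta chains exchanged order between organs. In each heart library Lamb2 exceeded Lamb1 per kb, by 6.04-fold to 9.19-fold (geometric mean 7.13). In each kidney library the ratio was below 1, from 0.514 to 0.883 (mean 0.672). In liver it was between 1.04 and 2.09 (mean 1.44). The heart and kidney ratios differed by 3.41 on the log2 scale, heart and liver by 2.30, and kidney and liver by -1.10. Each of these had a 2-sided permutation p of 1e-05, the smallest that 100000 permutations can give, and an adjusted p of 1.4e-05 over the 15 tissue comparisons of ratios.

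The proteoglycans also exchanged order. Agrn was 0.198 to 0.403 times Hspg2 per kb in heart (mean 0.298). In kidney it was 2.74 to 5.30 times Hspg2 (mean 3.92) and in liver 2.47 to 5.20 times (mean 3.51). Heart differed from kidney by -3.72 and from liver by -3.56 in the log2 ratio (adjusted p = 1.4e-05 for both, permutation test). Kidney and liver were 0.16 apart, with an adjusted p of 0.208.

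Nid2, the other nidogen, was below Nid1 in all 36 libraries. The ratio was lowest in heart, at 0.106 to 0.157 (mean 0.134), and higher in kidney, at 0.345 to 0.675 (mean 0.446), and in liver, at 0.233 to 0.511 (mean 0.385). Heart differed from kidney (-1.73) and liver (-1.52) in log2 ratio with an adjusted p of 1.4e-05 by permutation, and kidney from liver by 0.21 (adjusted p = 0.169).

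**Figure D2:**
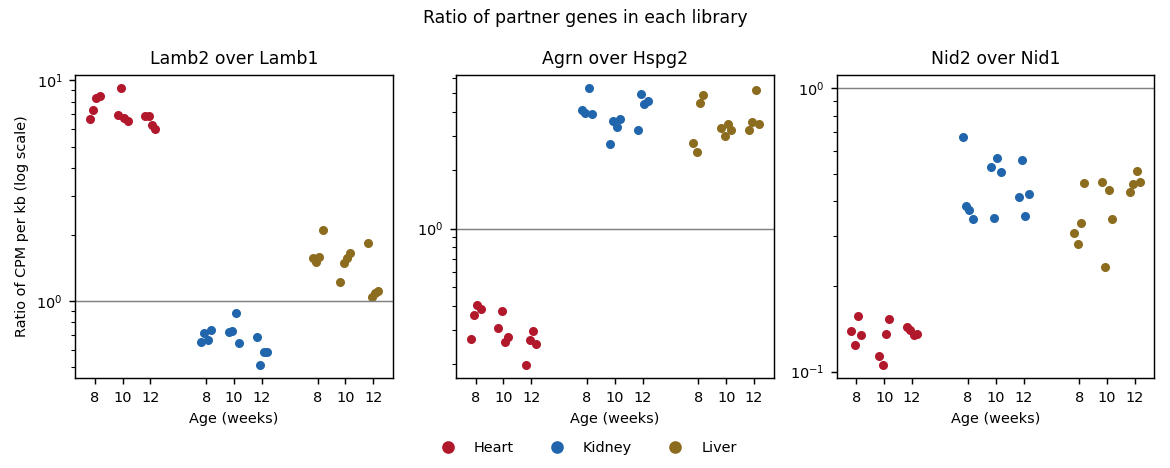
Ratio of CPM per kb for Lamb2 over Lamb1, Agrn over Hspg2 and Nid2 over Nid1 in each library (log scale), by tissue and age in weeks, with the grey line at 1. Lamb2 over Lamb1 lies above 6 in heart and below 1 in kidney, Agrn over Hspg2 lies below 1 in heart alone, and Nid2 over Nid1 lies below 1 throughout.

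To set the alpha and beta chains beside the rest of their classes, Lama1, Lama3 and Lamb3 were added and the share of each chain in its class was taken per kb. All alpha chains together came to 23.3 ± 2.42 CPM per kb in heart, 14.8 ± 1.19 in kidney and 2.13 ± 0.391 in liver (SD, n = 12). In heart, Lama5 made up 52.5% ± 6.59 of the alpha chains, Lama2 30.5% ± 4.50 and Lama4 15.9% ± 2.74. In kidney Lama5 had a like share, 52.3% ± 4.57, but was followed by Lama3 (25.9% ± 3.58), a chain of epithelial laminins, and Lama1 (14.7% ± 2.97), a chain of early and tubular basement membranes. In liver, Lama3 (35.96% ± 10.3) and Lama1 (25.8% ± 5.12) were ahead of Lama5 (19.2% ± 6.48), Lama4 (11.4% ± 3.50) and Lama2 (7.66% ± 2.25). Lama2 and Lama4 thus accounted for far more of the alpha transcripts in heart than in kidney, where they were 4.95% ± 1.16 and 2.22% ± 0.416.

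Among the beta chains of the heart, Lamb2 was 85.3% ± 1.67 and Lamb1 12.0% ± 1.27. In kidney Lamb1 (57.5% ± 4.25) came before Lamb2 (38.6% ± 2.57), and in liver Lamb2 (47.9% ± 6.03) before Lamb1 (33.2% ± 4.14). The order of the members within a class depended on the length used in 3 places. With the longest transcript, Lama2 (39.5% ± 4.46) came before Lama5 (37.3% ± 6.25) in heart, and Lamb1 (43.98% ± 4.70) came before Lamb2 (38.1% ± 5.34) in liver. In liver Lama4 (18.8% ± 5.20) also came before Lama5 (15.99% ± 5.54).

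**Figure D3:**
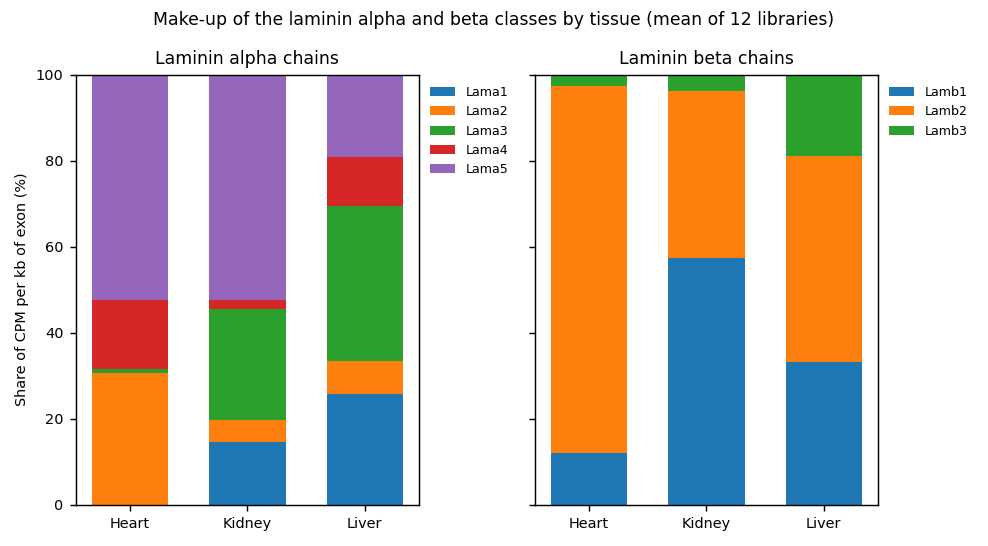
Share of each laminin alpha and beta chain in the CPM per kb of its class (percent, mean of 12 libraries per tissue), stacked to 100. Lama2 and Lama4 fill 30.5% and 15.9% of the alpha bar in heart, Lamb2 fills 85.3% of the beta bar in heart, and Lama3 and Lama1 appear mainly in kidney and liver.

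The comparison of ages asked how these matrix genes changed while the mice passed from 8 to 12 weeks. Each tissue was fitted separately with a mean per age, and a gene was called where the adjusted p over all genes of the tissue was under 0.05. In heart, Lama2 was the only member called between 8 and 12 weeks, in a comparison that called 2.36% of all genes higher and 2.21% lower. Its 4 libraries at 8 weeks held 86.6, 117, 121 and 112 CPM. At 10 weeks they held 120, 128, 142 and 115 CPM, and at 12 weeks 166, 161, 130 and 124 CPM. Every 12-week heart thus lay above every 8-week heart, as for 6.84% of all genes, with the 10-week hearts between them on average, and the log2 fold change from 8 to 12 weeks was 0.42 ± 0.12 (SE, edgeR adjusted p = 0.0499). The call is at the edge of the threshold. It was lost in 10 of the 12 fits without 1 library, where the log2 fold change stayed between 0.33 and 0.50 and the adjusted p between 0.017 and 0.147, and in 4 of 7 other settings. It held without replicate 3 at 10 weeks and without replicate 4 at 12 weeks.

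The other heart values were smaller than this or went the other way. Lama4 held 46.0 to 62.8 CPM at 8 weeks and 59.7 to 68.4 at 12 weeks (0.27 ± 0.11, edgeR adjusted p = 0.141), and these ranges overlapped. Lama5 held 141, 161, 161 and 171 CPM at 8 weeks, 112, 200, 142 and 107 at 10 weeks, and 136, 127, 110 and 125 at 12 weeks. The 12-week libraries all lay below the 8-week libraries, as for 5.51% of all genes in this direction, with a log2 fold change of -0.34 ± 0.15 (adjusted p = 0.177). For Agrn the values at 8 weeks were 66.7, 77.9, 90.4 and 80.5 CPM and at 12 weeks 53.5, 71.9, 61.2 and 63.9 (-0.33 ± 0.12, adjusted p = 0.111), with some overlap. Lamb1, Lamb2, Lamc1, Nid1, Nid2 and Hspg2 lay between -0.16 and 0.16. Neither 10 against 8 weeks (1.06% of all genes called) nor 12 against 10 weeks (0.0396%) gave a call among the 10 genes, by edgeR or DESeq2, and 0 had an unadjusted p under 0.05.

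With Lama2 and Lama5 apart in direction, the log2 ratio of Lama5 to Lama2 in heart changed by -0.76 from 8 to 12 weeks, without overlap. The exact 2-sided permutation p was 0.0286, the smallest that 4 against 4 libraries allow, and 0.214 adjusted over 15 tests of ratios with age, none of which had an adjusted p under 0.05.

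In kidney, 0 of the 10 genes were called in any pair of ages, in comparisons that called 0.0567% (12 against 8), 0.929% (10 against 8) and 0.482% (12 against 10) of all genes. From 8 to 12 weeks all log2 fold changes lay between -0.14 and 0.09, with SEs from 0.06 to 0.22, and no member separated the ages, where 4.78% of all genes did so upwards and 2.05% downwards. At an unadjusted p under 0.05 there were 0, 0 and 1 genes in these 3 comparisons, and DESeq2 also called 0. Hspg2, with 39.01 to 56.6 CPM at 8 weeks, 53.9 to 78.4 at 10 weeks and 42.9 to 73.0 at 12 weeks, had the largest changes through 10 weeks (0.32 ± 0.17 and -0.31 ± 0.17, adjusted p = 0.375 and 0.389). Lama2 and Nid1 varied together between kidneys. At 8 weeks, Lama2 held 7.11, 16.0, 13.4 and 17.3 CPM, and Nid1 20.7, 39.1, 38.6 and 45.4 CPM. Replicate 1, lowest for both, also held the lowest sums of 6 fibroblast markers (81.7 CPM, against 134 to 202 in the other 3) and of 6 pericyte and smooth muscle markers (90.7 against 153 to 211). The part of these cells in the spread was not tested.

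In liver, several members were lower at 12 weeks, but none passed the adjusted p in edgeR's test. From 8 to 12 weeks, 8 of the 10 log2 fold changes were below 0, with a median of -0.34 against -0.0039 for all genes, and 5 genes had an unadjusted p under 0.05. The comparison called 0.239% of all genes. DESeq2 called 3 of the 10, Lama2, Lama4 and Lamb2, lower, with 1.26% of all genes called in that direction. In 5 of the 10 genes every 12-week liver lay below every 8-week liver, compared with 3.46% of all genes.

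The laminin chains differed among themselves in liver. Lamb2 held 9.23, 9.77, 7.74 and 7.62 CPM at 8 weeks, 8.33, 9.07, 8.16 and 9.28 at 10 weeks, and 6.42, 5.61, 5.79 and 5.05 at 12 weeks. The first 2 ages were alike and the last lay below both without overlap (12 against 8 weeks, -0.60 ± 0.13, edgeR adjusted p = 0.0783). Lama4 followed the same course, with 4.37, 6.37, 3.90 and 3.00 CPM at 8 weeks, 4.60, 4.99, 4.64 and 3.83 at 10 weeks, and 2.24, 2.45, 2.36 and 2.72 at 12 weeks (-0.87 ± 0.21, adjusted p = 0.106). Lama2 was already lower at 10 weeks. It held 2.95, 5.44, 4.98 and 3.42 CPM at 8 weeks, 3.32, 2.36, 2.14 and 1.93 at 10 weeks, and 1.90, 2.93, 2.13 and 1.81 at 12 weeks. The highest 12-week value was just under the lowest 8-week value, and the log2 fold change from 8 weeks was -0.81 ± 0.25 at 10 weeks and -0.95 ± 0.25 at 12 weeks (adjusted p = 0.186 and 0.123).

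Lama5 (0.06 ± 0.24), Lamb1 (-0.18 ± 0.18) and Lamc1 (0.05 ± 0.21) had no such separation between 8 and 12 weeks. For Lamc1 a single 12-week liver with 37.8 CPM lay above the others (18.4 to 22.4), and without it the log2 fold change was -0.24. Without the same library (replicate 1) the value for Lama5 was -0.22, and without replicate 4 at 8 weeks it was -0.05.

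Of the linker proteins, Nid1 was low in the same 12-week libraries as Lamb2. It held 22.0, 27.9, 20.3 and 19.6 CPM at 8 weeks, 21.1, 37.2, 17.8 and 22.7 at 10 weeks, and 16.7, 13.9, 13.8 and 13.2 at 12 weeks. All 12-week values were below all earlier ones (12 against 8 weeks, -0.65 ± 0.20, edgeR adjusted p = 0.177). Agrn held 49.8, 48.1, 50.5 and 46.6 CPM at 8 weeks, 51.1, 56.1, 51.8 and 51.4 at 10 weeks, and 39.3, 44.9, 44.7 and 35.3 at 12 weeks. Its 3 ages were separate from each other, with 10 weeks highest (5.49% of all genes were higher at 10 than at 8 weeks without overlap) and 12 weeks lowest, though the difference from 8 weeks was small (-0.26 ± 0.09, adjusted p = 0.194). Hspg2 (-0.43 ± 0.21) and Nid2 (-0.20 ± 0.14) overlapped between 8 and 12 weeks.

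Between 10 and 12 weeks the pattern was much alike, and these comparisons share the 12-week livers. In 6 of the 10 genes the ages did not overlap, with 12 weeks lower, compared with 5.08% of all genes. They were Lama4 (-0.87 ± 0.21), Nid1 (-0.77 ± 0.20), Lamb2 (-0.59 ± 0.13), Hspg2 (-0.56 ± 0.21), Agrn (-0.35 ± 0.08) and Nid2 (-0.34 ± 0.14). The adjusted p in edgeR's test was between 0.0750 and 0.287 for these genes, in a comparison that called 0.0545% of all genes, and all 6 had an unadjusted p under 0.05. DESeq2 called 4 of them lower (Lama4, Nid1, Lamb2 and Agrn), with 2.22% of all genes called. Between 8 and 10 weeks (0.0204% called), no member was called and 1 had an unadjusted p under 0.05, and DESeq2 also called 0.

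**Figure D4:**
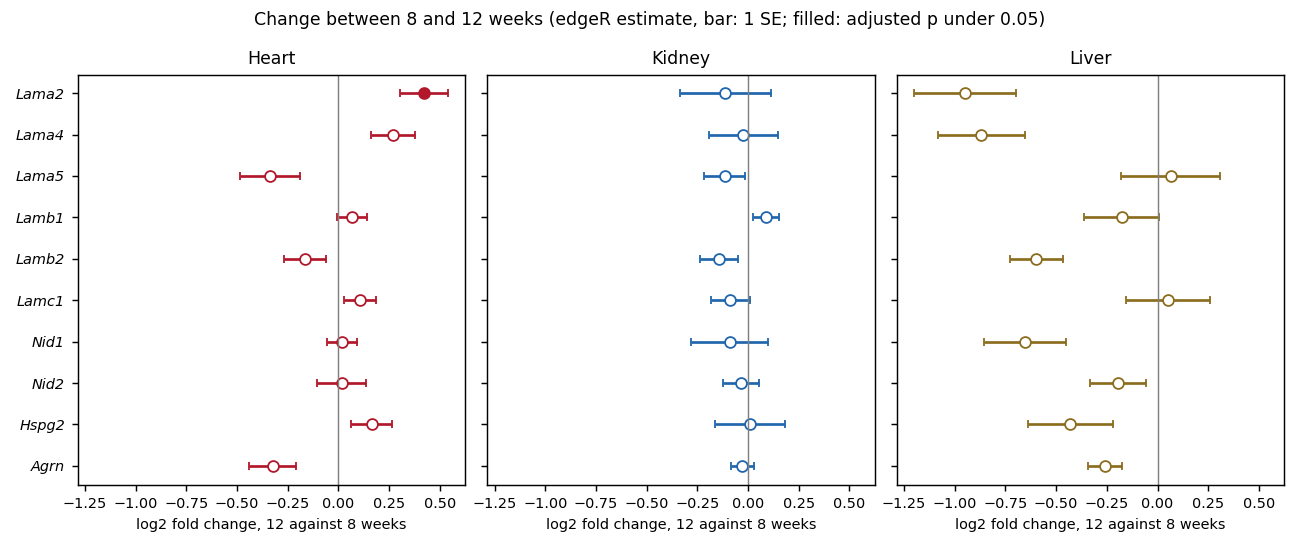
Log2 fold change from 8 to 12 weeks (edgeR estimate, horizontal bar 1 SE) of the 10 genes in heart, kidney and liver, with 4 libraries per age. The filled point, Lama2 in heart at 0.42, is the only one with an adjusted p under 0.05, and the liver points reach down to -0.95.

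**Figure D5:**
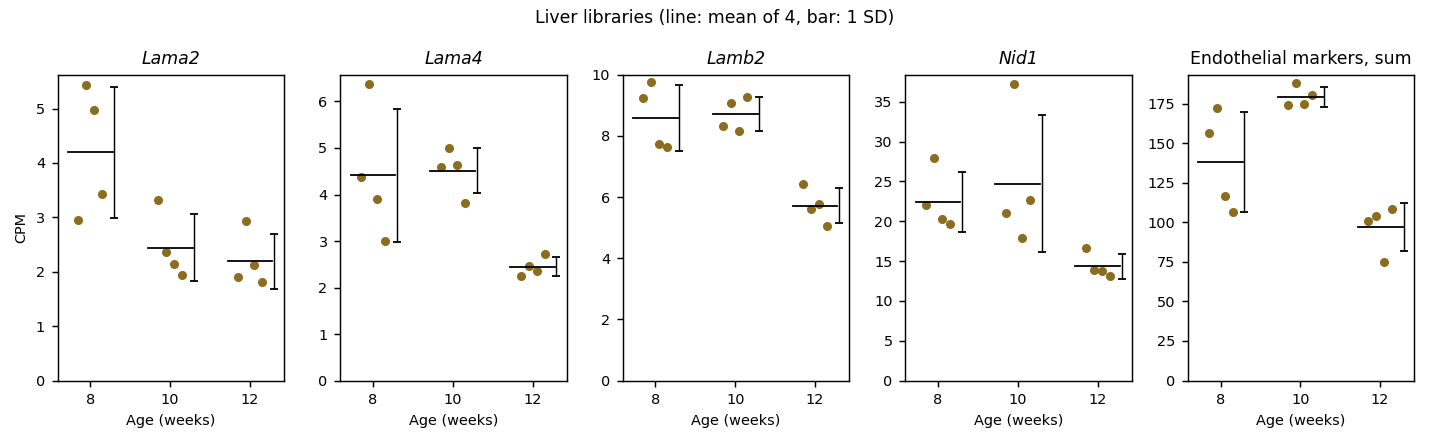
CPM of Lama2, Lama4, Lamb2 and Nid1 and the summed CPM of 7 endothelial markers in the liver libraries by age in weeks (points are libraries, lines the mean of 4, bars 1 SD). At 12 weeks Lama4, Lamb2 and Nid1 lie below every earlier library, and the endothelial sum lies between 74.8 and 109 CPM against 174 to 188 at 10 weeks.

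Markers of the cells that produce these proteins were measured in the same libraries. The 7 endothelial markers (Pecam1, Cdh5, Kdr, Tek, Emcn, Egfl7 and Tie1), none of which was at 0 in a liver library, summed to 106 to 172 CPM at 8 weeks, 174 to 188 at 10 weeks and 74.8 to 109 at 12 weeks in liver. From 8 to 12 weeks 0 of 7 had a log2 fold change above 0 and none was called, with a median of -0.51. The 6 fibroblast markers in liver summed to 212 to 327 CPM at 8 weeks, 226 to 302 at 10 weeks and 148 to 238 at 12 weeks, with 0 of 6 above 0 (median -0.49, none called). The 4 hepatic stellate cell markers likewise had 0 of 4 above 0 (median -0.58, none called), and the 5 macrophage markers had 1 of 5 above 0 (median -0.36, none called). Of the 6 pericyte and smooth muscle markers 4 were tested in liver, with 2 above 0 and 2 below (median 0.0052, none called), and the list summed to 62.5 to 68.2 CPM at 8 weeks, 59.3 to 97.3 at 10 weeks and 44.4 to 56.4 at 12 weeks. The part of these cells in the lower matrix transcripts was not tested.

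In heart, the fibroblast markers had higher sums at the later ages, with 756 to 808 CPM at 8 weeks, 884 to 1136 at 10 weeks and 835 to 960 at 12 weeks. Of the 6, Pdgfra (0.45 ± 0.08, edgeR adjusted p = 0.0055) and Lum (0.39 ± 0.09, adjusted p = 0.030) rose by 12 weeks, and both of these and Col3a1 (0.72 ± 0.17, adjusted p = 0.0499) rose by 10 weeks. From 8 to 12 weeks 5 fibroblast markers were above 0 and 1 below. From 10 to 12 weeks all 6 were below 0 (median -0.28, none called). The endothelial sum in heart was 679 to 797 CPM at 8 weeks and 723 to 783 at 12 weeks. Of its 7 genes 4 were above 0 and 3 below (median 0.019), and Tie1 fell (-0.26 ± 0.07, edgeR adjusted p = 0.036). Of the other lists, Myl2 rose (0.41 ± 0.10, edgeR adjusted p = 0.029) and Hand2 fell (-1.41 ± 0.24, adjusted p = 0.0061) by 12 weeks. Of the 5 cardiomyocyte markers 3 were above 0, and of the 4 stellate cell markers 3 were, with Hand2 the only one below. Lrp2 and Ttr, at trace levels in heart, passed the test at 10 weeks (4.10 ± 0.92 and 3.27 ± 0.75, adjusted p = 0.041 and 0.044). At 8 weeks the tubule and hepatocyte lists summed to at most 0.148 and 0.476 CPM, so both genes passed the count filter through later ages. The 10-week hepatocyte sum was 17.05 and 22.3 CPM in replicates 2 and 4, and 0.411 and 0.326 in replicates 1 and 3. These 2 results are not read as changes with age. In kidney the endothelial sums, 261 to 309 CPM at 8 weeks and 258 to 323 at 12 weeks, overlapped. There Cspg4, a pericyte marker, fell by 10 weeks (-0.43 ± 0.07, edgeR adjusted p = 0.016), and Aqp2 fell from 10 to 12 weeks (-1.10 ± 0.19, adjusted p = 0.024). Cspg4 was the 1 of 5 tested pericyte and smooth muscle markers below 0, with 4 above (median 0.19). Of the 5 kidney tubule markers, 2 were above 0 and 3 below from 10 to 12 weeks (median -0.077). The part of these cells in the heart and kidney values was not tested.

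Whether the change from 8 to 12 weeks differed between organs was tested by the interaction of tissue and age in the model of all 36 libraries. Lama2 and Lama4, the alpha chains of muscle and endothelium, had estimates above 0 in heart and below 0 in liver. The heart change exceeded the liver change by 1.37 ± 0.32 for Lama2 (log2, edgeR adjusted p = 0.0144) and by 1.15 ± 0.24 for Lama4 (adjusted p = 0.0064). These 2 of 10 genes were called, in a comparison that called 2.35% of all genes in that direction and 1.81% in the other. Limma-voom called Lama4 and not Lama2 (adjusted p = 0.0904). In this comparison Nid1 (0.67 ± 0.25), Hspg2 (0.59 ± 0.25) and Lamb2 (0.43 ± 0.16) had an unadjusted p under 0.05 but adjusted p from 0.118 to 0.191. Of the 7 endothelial markers, 3 were called in the same direction, Kdr (1.24 ± 0.26, adjusted p = 0.0064), Tek (0.82 ± 0.19, adjusted p = 0.0118) and Pecam1 (0.61 ± 0.15, adjusted p = 0.0223). Among all 7 endothelial markers, 6 estimates were above 0 and 1 was below. No member was called for heart against kidney (0.112% of all genes called) or kidney against liver (0.304%), with 1 and 4 genes at an unadjusted p under 0.05. DESeq2 called Lama4 for kidney against liver and none for heart against kidney. The share of all genes that DESeq2 called there is not given, so this call has no reference.

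The wider basement membrane was described with 43 other genes in 5 lists. Across the tissues, the basement membrane collagens were led per kb by Col4a1 in heart (66.2 ± 6.20 CPM per kb) and kidney (22.2 ± 2.12), and in liver by Col18a1 (227 ± 14.7), the source of endostatin, which hepatocytes also express. Among other basement membrane proteins, Sparc, a collagen-binding protein, led in heart (86.2 ± 9.25) and liver (14.4 ± 2.95) and Tinag, a tubular protein, in kidney (55.6 ± 2.72). Itgb1, the beta subunit of the laminin-binding integrins, led the receptors in all 3 tissues, with 90.2 ± 3.87 in heart, 45.9 ± 2.48 in kidney and 45.9 ± 2.20 CPM per kb in liver. Among proteases and inhibitors Timp3 led in heart (29.5 ± 5.73) and kidney (143 ± 11.1) and Mmp14 in liver (4.99 ± 0.687). Of the other laminin chains, Lamb3 led in heart (1.96 ± 0.409) and Lama3 in kidney (3.84 ± 0.711) and liver (0.776 ± 0.300).

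By the tissue call, heart exceeded liver in 7 of the 8 collagens and 10 of the 14 other proteins. It did so in 5 of the 8 receptors, 6 of the 8 proteases and inhibitors and 2 of the 5 other laminin chains, and liver was higher in the other 3 of these chains. Of all genes tested, 28.7% were called higher in heart than in liver and 26.5% lower. Against kidney the other laminin chains were called higher in heart in 1 and lower in 4, and the collagens higher in 3 and lower in 4. The other basement membrane proteins were higher in 7 and lower in 5, and the receptors higher in 4 and lower in 3. Proteases and inhibitors were higher in 6 and lower in 1. Of all genes, 21.9% were called higher in heart and 30.8% lower.

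With age, at most 2 of these genes were called in any comparison of a tissue. In heart, of 40 tested, 2 rose from 8 to 12 weeks and 0 fell, beside 2.36% and 2.21% of all genes. Hmcn1 (hemicentin 1, a large matrix protein that helps link neighbouring basement membranes) went from 10.4, 10.0, 14.2 and 13.0 CPM to 30.4, 30.5, 25.5 and 18.6 CPM (1.15 ± 0.16, edgeR adjusted p = 0.0018), and was already higher at 10 weeks (0.75 ± 0.16, adjusted p = 0.031). Lama3 went from 1.38 to 3.12 CPM at 8 weeks to 3.18 to 3.94 CPM at 12 weeks (0.74 ± 0.20, adjusted p = 0.044). Both had separate ages. Of 43 genes tested in kidney, 1 was called from 8 to 12 weeks, beside 0.0567% of all genes. In kidney, Col15a1, a collagen at the interface of basement membrane and stroma, rose from 9.86 to 11.6 CPM at 8 weeks to 15.1 to 21.5 CPM at 12 weeks (0.78 ± 0.10, adjusted p = 0.0084). Lama1 in kidney fell by 10 weeks (-0.57 ± 0.11, adjusted p = 0.030) and rose again by 12 weeks (0.57 ± 0.11, adjusted p = 0.039).

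In liver, Sparc was the 1 gene of 37 called from 8 to 12 weeks, beside 0.239% of all genes. It went from 65.7, 81.8, 62.2 and 80.1 CPM to 41.2, 51.8, 50.3 and 48.6 CPM (-0.61 ± 0.11, edgeR adjusted p = 0.044). The lists had medians below 0 in this comparison. They were -0.50 for the collagens (0 of 7 above 0) and -0.53 for other basement membrane proteins (1 of 11 above 0). For the other laminin chains the median was -0.25 (1 of 5 above 0). It was -0.31 for proteases and inhibitors (1 of 6 above 0) and -0.17 for receptors (3 of 8 above 0). In heart the same medians lay between -0.04 and 0.25, and in kidney between -0.09 and 0.07. The heart change exceeded the liver change by the interaction test for Col4a4 (1.65 ± 0.32, adjusted p = 0.0037), Col4a5 (0.91 ± 0.23, adjusted p = 0.022), Ntn4 (0.85 ± 0.20, adjusted p = 0.013) and Hmcn1 (2.21 ± 0.33, adjusted p = 0.00056). Hmcn1 also differed between heart and kidney (1.62 ± 0.31, adjusted p = 0.017), and Col4a5 between kidney and liver (1.06 ± 0.23, adjusted p = 0.027). Liver levels behind these calls were low. Col4a4 averaged 0.756 CPM in liver (lowest library 0.286) and Hmcn1 2.22 CPM. Col4a5 had a liver median of 4.05 CPM, with the highest library at 11.5 CPM.

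The members were finally compared with all genes by their pattern within tissues, as Pearson's r of log2 CPM over 36 libraries after the mean of each tissue was subtracted, among 11539 protein-coding genes. The libraries share their depth and composition, so r is descriptive. A high r over the 36 libraries need not hold in each tissue. Lama4 was most like Flt4, a receptor of endothelial growth factors (r = 0.856), followed by Rasgrp3 and Ggta1. Hspg2 was most like Klf7 (0.792), Lama4 (0.773) and Nav1, and within the 12 libraries of a tissue Hspg2 and Lama4 had an r of 0.703 (heart), 0.755 (kidney) and 0.812 (liver). Lama2 was most like Gpc6 (0.785), a cell surface proteoglycan, then Lyve1 and Abcc9. Lamc1 was close to Samd4 (0.806, with 0.330 in heart) and Myo9b (0.782, with 0.124 in kidney). It had no other member among its 100 nearest genes.

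Lamb2 was nearest to Prkg1 (0.775, with 0.352 in heart), Stab1 and Mtcl2. The 3 members Nid1, Hspg2 and Agrn were among its 100 nearest. In liver r of Lamb2 was 0.868 with Nid1, 0.864 with Lama4, 0.812 with Agrn and 0.785 with Hspg2. In heart the same values were 0.166, -0.535, 0.769 and 0.0975, so that in heart r was high with Agrn alone of these. Lama2 and Nid1 had an r of 0.941 in kidney, where replicate 1 at 8 weeks was low in both, and 0.256 in heart and 0.366 in liver. Nid1 was close to Chst15 (0.815) and Epb41l2 (0.789), but in heart these r were -0.202 and 0.265. Lama5 was nearest to Map1s (0.780), Sbno2 and Dusp4, and Lamb1 to Sgcb (0.781), Ncoa7 and Angptl2. For Lamb1 and Sgcb r was 0.894 in liver, 0.402 in heart and 0.179 in kidney. Agrn was nearest to Snrnp70 (0.759, with 0.247 in kidney), Ushbp1 and Gigyf1. Nid2, at lower counts, had the lowest nearest r (0.664, Was, before Cmtm3 and Meis3). With Was it was 0.025 in kidney.

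On GRCm39 Hspg2 and Agrn share chromosome 4, and Lama2 and Lama4 share chromosome 10. Lama2 covers chr10:26856032-27495754 and Lama4 chr10:38841141-38998403. The libraries carry no strand information, and read pairs that overlap exons of 2 genes are not counted. Exon positions shared with a gene on the other strand made up 12.9% of Lama4, 11.8% of Nid2 (with Rtraf), 7.62% of Lamb1 (with Dld) and 7.19% of Lama2, and at most 2.93% in the other members. Their CPM per kb can therefore be underestimated. The shares are of the merged exons, which for Lama4 span 15.7 kb against 7.87 kb in its longest transcript. The loss can thus be larger or smaller than these shares.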

How the data were processed

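RNA-seq counts of 36 mouse libraries were analysed. Per the labels and the study's methods, the authors checked reads with FastQC 0.11.9, trimmed them with cutadapt 4.2 and aligned the pairs with STAR 2.7.11b to GRCm39 with the Ensembl 113 annotation. The deposited values are raw counts of read pairs per gene. The column that ignores strand was taken, since the first strand held 49.8% to 50.2%. Symbols, positions and exon lengths were taken from GENCODE M39 (Ensembl 116, GRCm39), and promoter sequences from a RefSeq table of GRCm38.p6, placed on GRCm39 by exact match.

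Genes were kept in a tissue when, in at least 1 age group, 2 libraries were above 0 and the counts averaged at least 10 (15137 in heart, 17649 in kidney, 14672 in liver, 19716 over all). Tests used edgeR 4.0.16 (TMM, estimateDisp, glmQLFit, glmQLFTest) in R 4.3.3 with Benjamini-Hochberg adjustment over all genes kept. Ratios within a library were compared by exact permutation (ages, 4 against 4) or 100000 permutations (tissues). Alternatives were DESeq2 1.42.0, limma-voom (limma 3.58.1), RLE factors, library totals only, no count filter, a replicate block, first-strand counts, 2 ages only, and each library left out. The common coefficient of variation between libraries of a group was 0.118 (heart), 0.113 (kidney) and 0.206 (liver). The scripts were tested on simulated data. Tables and plots were made with python 3.11.15, pandas 2.3.3, scipy 1.17.1 and matplotlib 3.10.9.

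The 10 members, the 5 pathway lists and the 10 marker lists were chosen with earlier results of these data known. Single genes other than members are named where they passed the test with age (at most 4 per list and tissue), lead a pathway list per kb in a tissue, or are among the 3 most like a member. Some genes that this rule would name are not reported here. Library numbers were not taken as pairs, and tests between tissues treat the libraries as independent.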

Additional observations from a re-analysis of the deposited data

Results flagged for a closer look

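In 3 of the 90 gene and group combinations a library lay far from the other 3 of its group, by Dixon's test for 4 values at its 95% limit, which flags about 1 group in 20 by chance. Hspg2 held 39.01 CPM in kidney replicate 3 at 8 weeks, against 53.7 to 56.6 in the others. It held 73.0 CPM in kidney replicate 1 at 12 weeks, against 42.9 to 47.1. Agrn held 56.1 CPM in liver replicate 2 at 10 weeks, against 51.1 to 51.8.

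For Lama2 and Lama4, the change from 8 to 12 weeks differed between heart and liver by the interaction test in the model of all 36 libraries. The heart change minus the liver change was 1.37 on the log2 scale for Lama2 and 1.15 for Lama4.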

How the results depend on the processing

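The directions of all tissue differences held under every setting tried. With library totals only, 1 member (Agrn) was called lower in heart than in kidney and 10 higher in kidney than in liver. From 8 to 12 weeks in heart, 0 members were called higher with limma-voom, RLE factors, first-strand counts or 2 ages only, and 0 to 1 with a library left out. Without the count filter, 2 were called lower there (Lama5 and Agrn), 1 (Hspg2) was called higher at 10 than at 8 weeks and 1 lower at 12 than at 10 weeks in kidney, 1 (Nid1) lower at 12 than at 10 weeks in liver, 4 in the heart against liver change and 2 in the kidney against liver change. DESeq2 called 3 lower in liver from 8 to 12 weeks, 4 from 10 to 12 weeks, and 1 in the kidney against liver change, where 0 to 1 were called with a library left out. Limma-voom called 1 in the heart against liver change. Under these settings the share of all genes called is given only for DESeq2 in liver, 12 against 8 and 12 against 10 weeks. The other counts therefore cannot be set beside a background. Fits without the count filter tested 34374 genes in liver to 42077 in kidney. The causes were not tested.

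Lamc1 in liver turned to -0.0074 with limma-voom. With a library left out, log2 fold changes near 0 crossed it, from -0.032 to 0.074 for Nid1 and -0.041 to 0.081 for Nid2 in heart, and from -0.22 to 0.19 for Lama5 and -0.24 to 0.17 for Lamc1 in liver. The Nid2 to Nid1 ratio in heart turned to -0.0405 with first-strand counts. The Lama5 to Lama2 ratio between heart and liver was then -0.49 (permutation test, adjusted p = 0.129) and -0.62 to -0.42 with a library left out, past the threshold in only some of these. The other ratios with age that crossed 0 with a library left out ranged from -0.050 to 0.061 (Nid2 to Nid1, heart), -0.11 to 0.24 (the same, kidney), -0.10 to 0.11 (Agrn to Hspg2, kidney), -0.052 to 0.28 (the same, liver), -0.20 to 0.28 (Lama5 to Lama2, kidney), -0.24 to 0.049, -0.13 to 0.30 and -0.024 to 0.28 (Lama4 to Lama2 in heart, kidney and liver).

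The replicate block gave 1 member called higher in heart from 8 to 12 weeks (Lama2, edgeR adjusted p = 0.0494) and changed no call of the members. Between ages, libraries were matched by replicate number, which links no animals, since each mouse was killed at 1 age. Of the 12 correlations, at most 1 exceeded 0.1 in any tissue. Between tissues, libraries of 1 age were matched by library number, and at most 3 of 12 exceeded 0.1. Libraries nevertheless correlated best with their own number in 9 of 12 pairs of heart and kidney, 7 of 12 of heart and liver and 12 of 12 of kidney and liver. Between ages 3, 2 and 4 of 12 did so in heart, kidney and liver. The study describes too few mice per age for every organ to come from separate animals, so some mice gave more than 1 organ. Which libraries share a mouse is not stated. The counts between tissues, above those between ages, are a hint that organs with 1 number do. Limits are the 4 libraries per group, the wider spread between livers, and the low liver counts of Lama2 and Lama4.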
